A study of Homo sapiens with 36 samples.

Results

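Expression of 10 genes of endoplasmic reticulum (ER) protein folding and of the unfolded protein response was followed through the 3 gene expression tables of the series. The genes were the ER chaperones HSPA5 and HSP90B1, the co-chaperones DNAJB9, DNAJC3 and SDF2L1, the disulfide isomerase PDIA4, the ER-resident or secreted factors MANF and CRELD2, the ER-associated degradation component HERPUD1 and the transcription factor XBP1. They were taken by gene symbol, matched to NCBI gene identifiers, and all 10 were present among the 16431, 17035 and 16459 genes of the 3 tables. The question was whether GSK-J4, an inhibitor of the H3K27 demethylases KDM6A and KDM6B, raised these genes together with the genes of the PERK-ATF4-CHOP branch of ER stress signaling.

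The samples came from 2 cisplatin-resistant clones of human testicular embryonal carcinoma lines, NT2/D1-A4 and 2102EP-C1. In each line, cells were left as control, pretreated with 1 µM GSK-J4 for 3 days, exposed for 6 h to 0.5 µM cisplatin, or given both drugs (combination). In a further experiment, 2102EP-C1 cells carrying the vector pLKO.1 or shRNAs to both KDM6A and KDM6B (sh6A+6B) were left without cisplatin or exposed to the same cisplatin dose for 6 h. RNA was taken 24 h after cisplatin, and each of the 4 groups of each experiment had 3 libraries, 36 libraries in all. Every group therefore derived from cells with acquired resistance to cisplatin, and each line is a single clone. The study reports that GSK-J4 and the double knockdown sensitized cisplatin-resistant cells to cisplatin, so the groups need not be equally resistant.

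In resting cells HSPA5 (BiP) holds the luminal side of the stress sensors and releases it when unfolded proteins accumulate. The sensor ATF6 then moves to the nucleus and induces chaperone genes through ER stress response elements, IRE1 (gene ERN1) splices the XBP1 transcript so that it encodes an active factor for degradation and co-chaperone genes, and PERK (gene EIF2AK3) slows translation while favouring ATF4 and its target CHOP (gene DDIT3). The ATF4 branch can also be engaged by other kinases that sense amino acid lack or heme lack, without a load of unfolded protein, so that chaperone genes and ATF4 target genes are commonly read side by side.

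Sequencing depth was 26.8 to 49.5 M reads (M, 1000000) per library in NT2/D1-A4, 30.3 to 53.6 M reads in the GSK-J4 experiment of 2102EP-C1 and 79.4 to 101 M reads in the knockdown experiment. Across all libraries the members were covered by 102 reads (SDF2L1, NT2/D1-A4) to 263185 reads (HSP90B1, knockdown), so that SDF2L1 was the member with the largest counting error. Of 12 embryonal carcinoma markers, 11 were listed and all 11 were above 5 log2 CPM (counts scaled to a library of 1000000 reads, with a small prior count) in every library of the 3 experiments, while of 12 markers of other germ cell tumour types and somatic cells 6, 6 and 5 were listed and only VIM exceeded this level, in NT2/D1-A4 and in the knockdown experiment. In sh6A+6B cells KDM6A was at 6.14, 6.09 and 6.20 log2 CPM against 7.16, 7.17 and 7.15 in pLKO.1 cells, and KDM6B was at 3.51, 3.61 and 3.75 against 4.61, 4.66 and 4.63. In bulk RNA, fewer cells expressing a gene and less RNA per cell cannot be told apart. The study calls the replicates of a group biological, but nothing in the labels says that replicate libraries came from separate cultures. The p-values therefore measure the spread between these libraries, which may be technical.

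Among untreated cells the luminal chaperones stood far above the other members. Per kilobase of the canonical transcript, HSP90B1, the ER form of HSP90, was at 510 ± 2.05 CPM in NT2/D1-A4, 693 ± 6.73 in 2102EP-C1 and 878 ± 11.5 in pLKO.1 cells (SD, n = 3 each). HSPA5 came next at 249 ± 0.947, 316 ± 5.66 and 348 ± 3.05 CPM per kilobase, followed by PDIA4 at 141 ± 2.15, 179 ± 5.43 and 190 ± 0.590. MANF, XBP1 and DNAJC3 followed in this order in all 3 experiments, with MANF at 87.4 to 138 and XBP1 at 46.1 to 55.2 mean CPM per kilobase. The order of the 4 lowest members, CRELD2, HERPUD1, SDF2L1 and DNAJB9, was not the same in the 3 experiments, and their means lay between 7.38 and 14.1 CPM per kilobase. In 2102EP-C1 the libraries of SDF2L1, at 10.1 to 11.7, overlapped those of HERPUD1, at 9.84 to 10.9, and those of CRELD2, at 11.5 to 12.4. Reads of HSPA5, HSP90B1 and XBP1 may be shared with processed copies (HSPA5P1, HSP90B2P and HSP90B3P, XBP1P1). HSP90B1 and CRELD2 overlap genes on the opposite strand (UQCC6 and ALG12 among them), and whether counting used the strand of the stranded libraries is not given in the sources used here.

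Promoters of HSPA5, XBP1, HERPUD1 and SDF2L1 are given because these genes differed in opposite directions under GSK-J4 in NT2/D1-A4. Each window given holds an ER stress response element. The other XBP1 promoter (chr22:28800028-28800327, minus strand) holds none of the marked sites and is not given. Each window is the RefSeq promoter of GRCh38.p14, 250 bases before to 50 bases after the annotated start, read 5′ to 3′ on the strand of the gene. Capitals mark matches, on either strand, to the ER stress response element ERSE (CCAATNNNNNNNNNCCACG), to the variant ERSE-II (ATTGGNCCACG) and to the composite site of ATF4 with C/EBP proteins (TGATGNAA). In HSPA5 (chr9:125241294-125241593, minus strand) and XBP1 (chr22:28800520-28800819, minus strand) the capitals are an ERSE, and in SDF2L1 (chr22:21642052-21642351, plus strand) they are an ERSE-II on the opposite strand. In HERPUD1 (chr16:56931892-56932191, plus strand) the first capitals are the composite site, on the opposite strand, and the second are an ERSE-II.
HSPA5: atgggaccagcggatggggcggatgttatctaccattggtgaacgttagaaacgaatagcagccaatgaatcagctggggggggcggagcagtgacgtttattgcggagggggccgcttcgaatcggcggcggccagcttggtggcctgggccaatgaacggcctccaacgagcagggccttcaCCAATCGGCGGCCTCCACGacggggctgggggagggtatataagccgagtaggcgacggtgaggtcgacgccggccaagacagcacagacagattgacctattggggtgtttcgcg
XBP1: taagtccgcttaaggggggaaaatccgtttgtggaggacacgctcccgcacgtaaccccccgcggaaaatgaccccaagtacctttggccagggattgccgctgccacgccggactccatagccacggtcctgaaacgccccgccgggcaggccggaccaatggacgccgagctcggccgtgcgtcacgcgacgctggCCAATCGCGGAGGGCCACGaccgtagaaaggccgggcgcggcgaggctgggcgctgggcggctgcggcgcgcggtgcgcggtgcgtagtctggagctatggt
HERPUD1: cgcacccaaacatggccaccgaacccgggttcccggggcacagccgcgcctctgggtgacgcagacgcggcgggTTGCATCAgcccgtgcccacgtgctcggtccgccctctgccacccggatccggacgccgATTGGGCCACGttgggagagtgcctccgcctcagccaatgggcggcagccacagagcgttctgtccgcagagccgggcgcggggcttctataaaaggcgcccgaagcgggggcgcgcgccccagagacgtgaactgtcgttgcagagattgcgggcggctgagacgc
SDF2L1: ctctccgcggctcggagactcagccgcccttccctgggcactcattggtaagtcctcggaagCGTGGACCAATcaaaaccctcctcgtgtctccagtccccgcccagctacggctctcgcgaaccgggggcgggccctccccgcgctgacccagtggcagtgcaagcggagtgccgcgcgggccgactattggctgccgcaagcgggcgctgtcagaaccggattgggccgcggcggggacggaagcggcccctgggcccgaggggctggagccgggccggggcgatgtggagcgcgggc
All 10 members matched a promoter of the RefSeq table, 12 promoters in all. ERSE was found in 4 of the 10 members (HSPA5, HSP90B1, XBP1 and CRELD2), against 0.0769% of the 35116 promoters of the table, and ERSE-II in 2 (HERPUD1 and SDF2L1), against 0.0541%. The composite site was found only in HERPUD1 among the 10 members, 176 bases before the start, and in 3.62% of all promoters. The core CCACG, which is part of ERSE and ERSE-II, was found in all 10 members and in 38.1% of all promoters. The members are genes of the ER stress response and ERSE and ERSE-II are its elements, so these shares are a description and no test of the members. Members were counted as genes, XBP1 and PDIA4 with 2 promoters each, while the shares are of single promoters. A match describes the letters in these windows and is not evidence that a factor binds there.

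GSK-J4 alone did not raise the members as a group. A gene was called where its fold change exceeded 1.3 and its adjusted p in limma, over all genes of the table, was under 0.05. In NT2/D1-A4, 3 of 10 members rose (HERPUD1, DNAJB9 and XBP1), against 13.8% of all genes, and 1 fell (SDF2L1), against 6.48% of all genes. In 2102EP-C1 no member rose, against 7.79% of all genes, and 1 fell (SDF2L1), against 3.12%, and voom on recovered reads gave the same counts in both lines. The median log2 fold change of the 10 members was -0.075 in NT2/D1-A4 and -0.089 in 2102EP-C1, beside medians over all genes of 0.0084 and -0.0017. Without the fold limit, 3 members were higher and 5 lower in NT2/D1-A4, where 24.5% of genes were higher and 23.8% lower, and 2 members were higher and 5 lower in 2102EP-C1, where these shares were 19.2% and 16%. At an unadjusted p under 0.05, 8 members of NT2/D1-A4 and 7 of 2102EP-C1 passed, where 54.3% and 44.2% of all genes did. The plot of members in each library shows the members side by side.

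**Figure D1:**
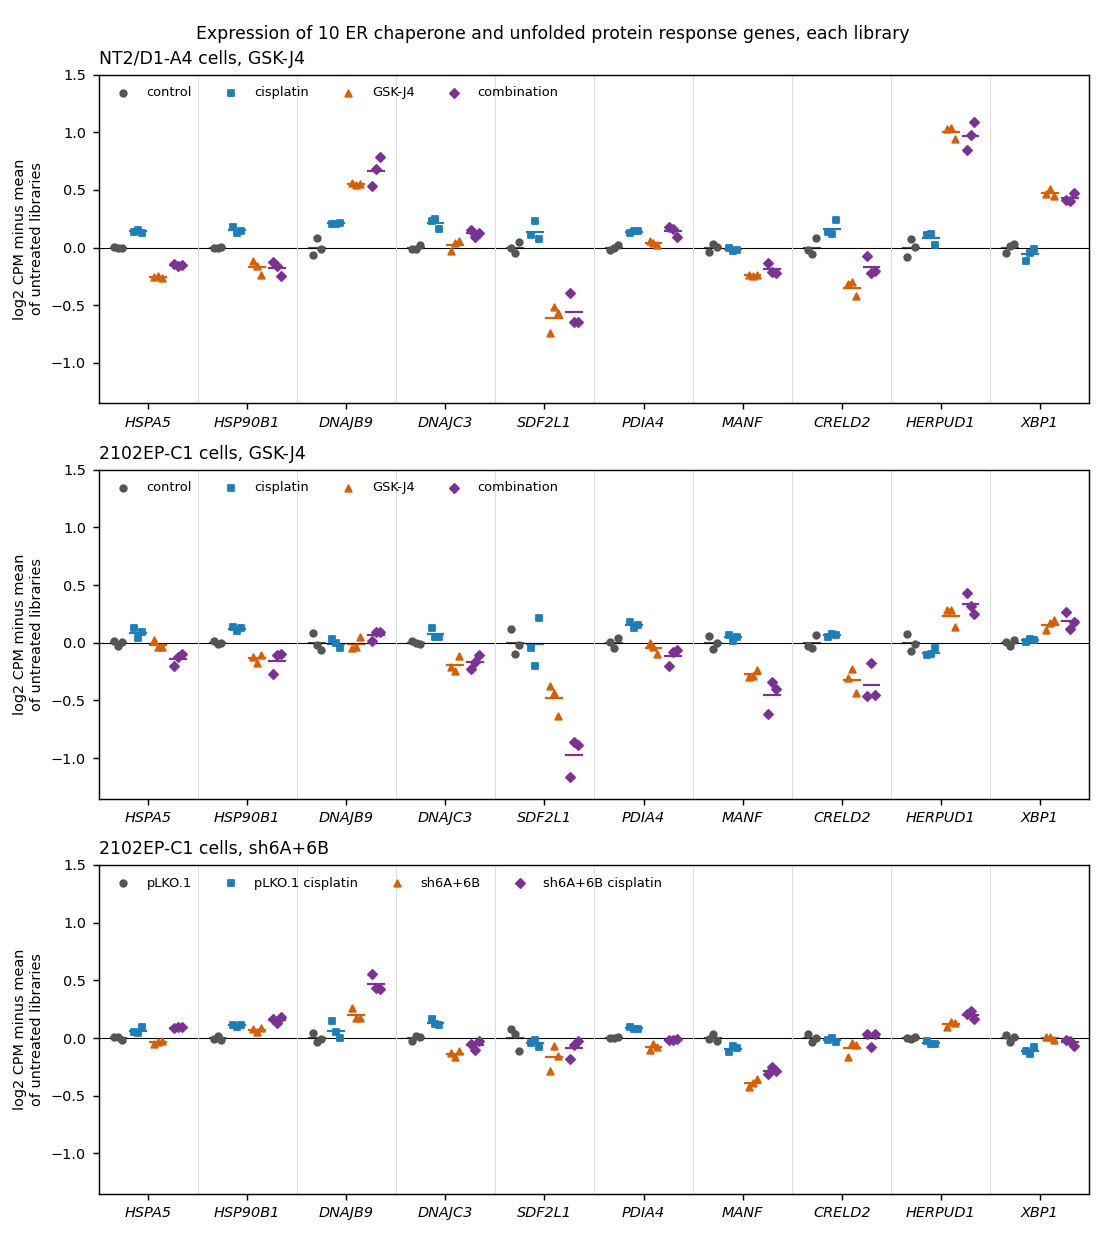
Expression of the 10 members in every library, as log2 CPM minus the mean of the 3 untreated libraries of the same experiment, with a panel per experiment. Points are libraries and short lines are means of 3 libraries. HERPUD1 stands about 1 above control in both GSK-J4 groups of NT2/D1-A4, SDF2L1 lies below control in the GSK-J4 groups of both lines, and group means of the knockdown experiment lie between -0.39 and 0.47.

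HERPUD1, a membrane protein that organises the complex for ER-associated degradation, showed the largest rise of the 10 members. In NT2/D1-A4 its level was 4.90, 5.05 and 4.98 log2 CPM in control libraries and 6.01, 6.01 and 5.92 with GSK-J4. The 2 groups did not overlap, and the difference was 1.00 ± 0.056 (SE) on the log2 scale, or 2.00-fold (limma adjusted p = 5.71e-11). In 2102EP-C1, HERPUD1 was at 4.96, 4.81 and 4.88 log2 CPM in control and at 5.17, 5.16 and 5.02 with GSK-J4. The groups again did not overlap, but the difference of 0.23 ± 0.054 stayed under the fold limit (limma adjusted p = 0.00128). Between the lines the effects were not tested against each other, because their tables were normalised separately.

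XBP1, the factor whose transcript IRE1 splices, rose by 0.47 ± 0.038 (log2, 1.39-fold) in NT2/D1-A4 (limma adjusted p = 8.97e-09). Its libraries were at 6.45, 6.51 and 6.53 log2 CPM in control and at 6.96, 7.0 and 6.95 with GSK-J4, without overlap. In 2102EP-C1 the corresponding values were 6.37, 6.34 and 6.39 in control and 6.48, 6.54 and 6.56 with GSK-J4, a difference of 0.16 ± 0.038 under the fold limit (limma adjusted p = 0.00172). Gene counts add the spliced and unspliced forms of XBP1, so splicing was not measured. DNAJB9, an HSPA5 co-chaperone and a target of XBP1, had 4.23, 4.38 and 4.29 log2 CPM in control and 4.86, 4.84 and 4.85 with GSK-J4 in NT2/D1-A4. This was a rise of 0.55 ± 0.059 (log2, 1.47-fold, limma adjusted p = 3.28e-07), and the groups did not overlap. In 2102EP-C1 the DNAJB9 libraries of control (4.31, 4.2 and 4.16 log2 CPM) and GSK-J4 (4.18, 4.18 and 4.27) overlapped, with a difference of -0.013 and a 95% interval of -0.128 to 0.102.

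**Figure D2:**
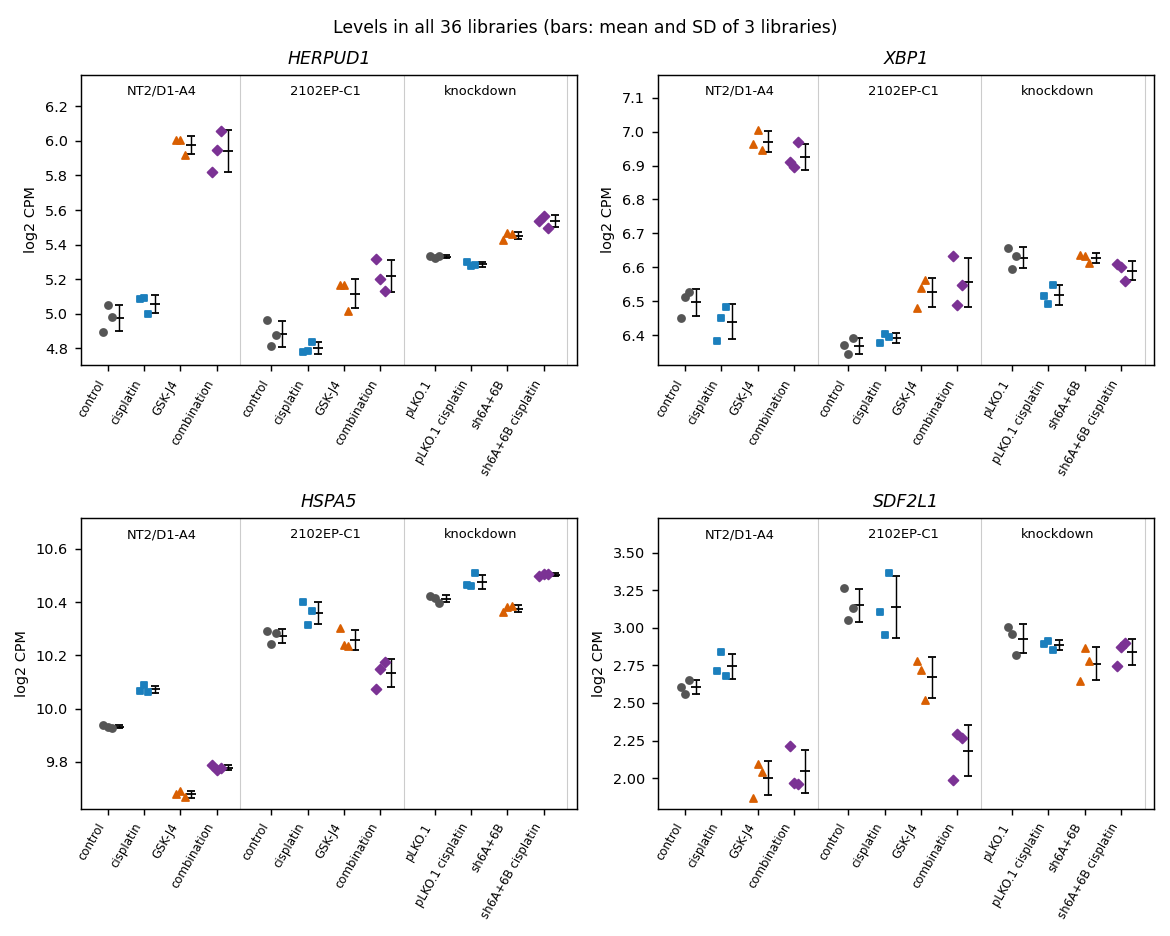
Levels of HERPUD1, XBP1, HSPA5 and SDF2L1 in all 36 libraries, in log2 CPM, with points for libraries and black bars for the mean and SD of 3 libraries. The y axes differ between genes and do not start at 0. In NT2/D1-A4 the GSK-J4 groups lie above control for HERPUD1 and XBP1 and below control for HSPA5 and SDF2L1.

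HSPA5, the most abundant HSP70 of the ER and the usual reporter of ER stress, was lower with GSK-J4 in NT2/D1-A4 and did not rise in either line. In NT2/D1-A4 it was at 9.94, 9.93 and 9.93 log2 CPM in control and at 9.68, 9.69 and 9.67 with GSK-J4. These groups were far apart relative to their spread, and the difference of -0.25 ± 0.029 (0.838-fold, limma adjusted p = 8.42e-07) was under the fold limit. In 2102EP-C1, HSPA5 was at 10.29, 10.24 and 10.28 in control and at 10.30, 10.24 and 10.23 with GSK-J4, overlapping groups with a difference of -0.015 (95% interval -0.080 to 0.049, limma adjusted p = 0.741). The upper bound of the interval lay under the fold limit.

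HSP90B1 (GRP94) was lower with GSK-J4, with differences of -0.17 ± 0.038 in NT2/D1-A4 and -0.13 ± 0.035 in 2102EP-C1 on the log2 scale (limma adjusted p = 0.00104 and 0.00406). Its NT2/D1-A4 libraries were at 10.47, 10.47 and 10.48 log2 CPM in control and at 10.35, 10.31 and 10.24 with GSK-J4, and its 2102EP-C1 libraries at 10.93, 10.90 and 10.91 and at 10.79, 10.74 and 10.80. The groups did not overlap in either line, and both differences were under the fold limit. PDIA4, which forms disulfide bonds in client proteins, showed differences of 0.039 (95% interval -0.028 to 0.106) and -0.043 (-0.116 to 0.029), with overlapping groups in both lines. DNAJC3 (p58IPK), which binds HSPA5 in the lumen and restrains PERK, differed by 0.021 (95% interval -0.056 to 0.098) in NT2/D1-A4 and by -0.19 ± 0.039 in 2102EP-C1 (limma adjusted p = 0.00044). Neither of these genes passed the fold limit in either line.

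SDF2L1, an ER-resident partner of the co-chaperones of HSPA5, fell in both lines. In NT2/D1-A4 it was at 2.60, 2.56 and 2.65 log2 CPM in control and at 1.87, 2.09 and 2.04 with GSK-J4, and so fell by 0.61 ± 0.096 on the log2 scale, and the level dropped by 34.3% (limma adjusted p = 3.63e-05). In 2102EP-C1 it was at 3.27, 3.05 and 3.13 in control and at 2.78, 2.72 and 2.52 with GSK-J4, and so fell by 0.48 ± 0.105, and the level dropped by 28.3% (limma adjusted p = 0.000795). The groups did not overlap in either line, and in NT2/D1-A4 they rested on 185 to 247 reads per library in control and 113 to 209 with GSK-J4.

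CRELD2 and MANF, small ER factors that are released from stressed cells, were lower in both lines without reaching the fold limit. For CRELD2 the NT2/D1-A4 libraries were at 4.27, 4.24 and 4.37 log2 CPM in control and at 3.98, 4.0 and 3.87 with GSK-J4, a difference of -0.35 ± 0.061 (limma adjusted p = 0.000113). In 2102EP-C1 the CRELD2 libraries were at 4.06, 4.04 and 4.15 in control and at 3.78, 3.86 and 3.65 with GSK-J4, a difference of -0.32 ± 0.071 (limma adjusted p = 0.000882). In both lines all 3 GSK-J4 libraries lay below all 3 control libraries. MANF, which binds HSPA5 and has neurotrophic activity, differed by -0.24 ± 0.037 in NT2/D1-A4 and by -0.27 ± 0.048 in 2102EP-C1 (limma adjusted p = 2.89e-05 and 6.06e-05). It ranged over 6.28 to 6.35 log2 CPM in control and 6.07 to 6.08 with GSK-J4 in NT2/D1-A4, and over 6.81 to 6.92 and 6.57 to 6.63 in 2102EP-C1.

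**Figure D3:**
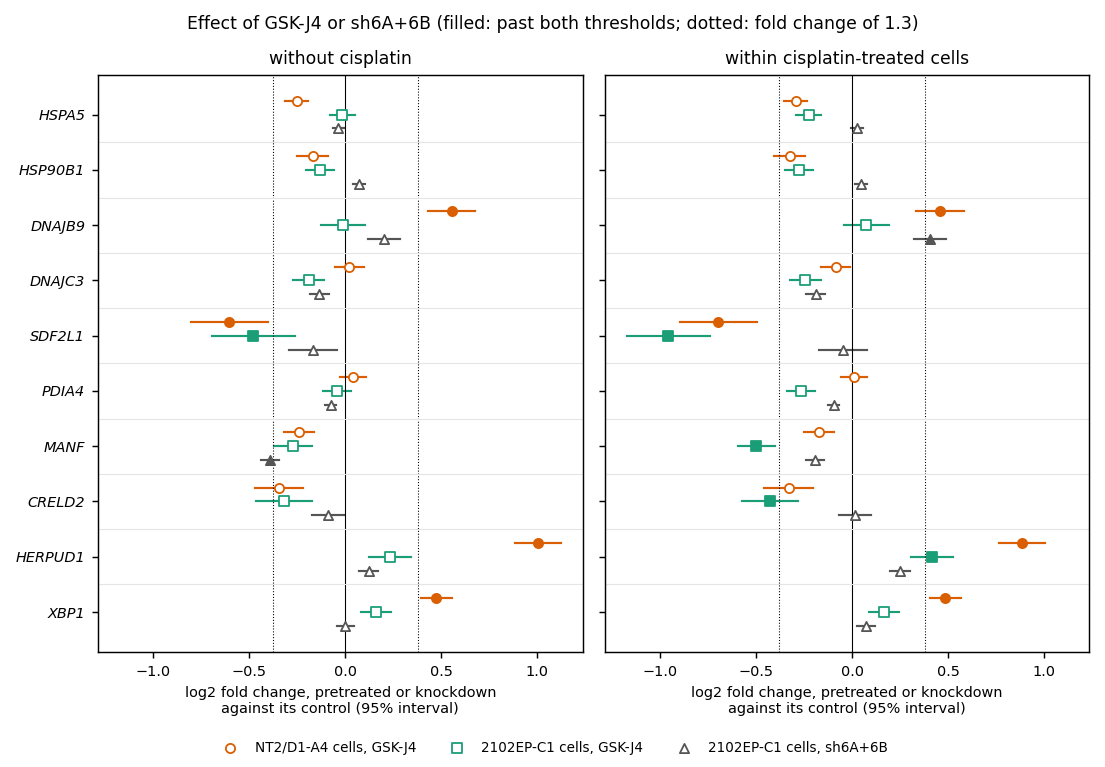
Log2 fold change of each member for GSK-J4 or sh6A+6B against its own control, without cisplatin (left) and within cisplatin-treated cells (right), with 95% intervals from limma. Filled symbols passed both thresholds, and dotted lines mark a fold change of 1.3. HERPUD1, DNAJB9 and XBP1 of NT2/D1-A4 are filled on the right of 0 in both panels, and SDF2L1 of both lines is filled on the left.

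Cisplatin alone left the members within the fold limit. No member was called in NT2/D1-A4, 2102EP-C1 or pLKO.1 cells, where 2.45%, 1.07% and 3% of all genes were called in either direction, and voom on recovered reads also called none. At an unadjusted p under 0.05, 6, 3 and 6 members passed, where 24.7%, 16.7% and 44.4% of all genes did. Without the fold limit, 5 members were higher and none lower in NT2/D1-A4, against 5.85% and 3.58% of all genes. These were HSPA5 (0.14 ± 0.029), HSP90B1 (0.15 ± 0.038), DNAJB9 (0.21 ± 0.059), DNAJC3 (0.21 ± 0.037) and PDIA4 (0.14 ± 0.032 on the log2 scale, limma adjusted p from 0.00142 to 0.0304). For HSPA5 the NT2/D1-A4 libraries were at 10.07, 10.09 and 10.06 log2 CPM after cisplatin, above every control library. In 2102EP-C1, PDIA4 alone was higher by that rule (0.15 ± 0.035, limma adjusted p = 0.00968), where 3.06% of all genes were higher and 1.02% lower. In pLKO.1 cells, 4 members were higher and 2 lower, against 17.9% and 18.2% of all genes. The higher members were HSPA5 (0.064), HSP90B1 (0.11), DNAJC3 (0.13) and PDIA4 (0.082), and the lower were XBP1 (-0.11) and MANF (-0.093), all differences on the log2 scale. HSPA5, HSP90B1, DNAJC3 and PDIA4 had positive differences after cisplatin in all 3 experiments, with limma adjusted p of 0.051 to 0.329 for HSP90B1, HSPA5 and DNAJC3 in 2102EP-C1. The other members did not keep the same sign in all 3 experiments. The share of all genes with positive differences in all 3 was not counted. The 3 cisplatin comparisons do not share samples, but those of 2102EP-C1 and pLKO.1 cells are of the same clone.

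In NT2/D1-A4 cells given both drugs, 3 members rose and 1 fell. Against control, HERPUD1 (0.97 ± 0.056), DNAJB9 (0.67 ± 0.059) and XBP1 (0.43 ± 0.038) rose, where 15.9% of all genes rose, and SDF2L1 fell by 0.56 ± 0.096 on the log2 scale, where 9.56% of all genes fell. Against cisplatin alone, HERPUD1 (0.89), XBP1 (0.49) and DNAJB9 (0.46) rose, beside 12.8% of all genes, and SDF2L1 fell by 0.70, beside 7.84%. These comparisons share the combination libraries with each other and the control libraries with the GSK-J4 comparison, so they are not separate evidence. Against GSK-J4 alone no member was called, where 0.377% of all genes were (4 members had an unadjusted p under 0.05, where 14.6% of all genes did, and voom called none). In the test of the interaction of both drugs no member was called either, where 0.0426% of all genes were, and 1 member had an unadjusted p under 0.05, where 7.15% of all genes did.

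In 2102EP-C1 the combination was further from control than GSK-J4 alone for SDF2L1. Its combination libraries were at 1.99, 2.29 and 2.27 log2 CPM, below all 3 libraries with GSK-J4 alone, and the fall was 0.97 ± 0.105 against control and 0.49 ± 0.105 against GSK-J4 (limma adjusted p = 1.81e-08 and 0.00235). MANF was at 6.25, 6.53 and 6.46 log2 CPM and fell by 0.45 ± 0.048 against control. These 2 members fell and none rose, where 12.8% of all genes rose and 9.77% fell. The MANF call was lost without combination replicate 1, the lowest of the 3 libraries (-0.37), and CRELD2 (-0.36 ± 0.071) was called without control replicate 2 (-0.39) or combination replicate 2 (-0.46), so that the count moved between 1 and 3. Against GSK-J4 alone SDF2L1 was the only member called, where 2.22% of all genes were called, and 3 members had an unadjusted p under 0.05, where 29.3% of all genes did.

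Against cisplatin alone, the combination in 2102EP-C1 raised HERPUD1 and lowered SDF2L1, MANF and CRELD2. The differences were 0.42 ± 0.054 for HERPUD1, where 10.5% of all genes rose, and -0.96 ± 0.105, -0.50 ± 0.048 and -0.43 ± 0.071 for SDF2L1, MANF and CRELD2, where 8.82% fell. Without combination replicate 1, HERPUD1 was at 0.37 and under the fold limit. HSPA5 was at 10.07, 10.15 and 10.18 log2 CPM in the combination and at 10.40, 10.31 and 10.37 with cisplatin, groups that did not overlap, with a difference of -0.23 ± 0.032 under the fold limit (limma adjusted p = 1.29e-06). HSP90B1 (-0.28), PDIA4 (-0.27) and DNAJC3 (-0.25) also had negative differences there on the log2 scale, at limma adjusted p of 3.44e-07 to 1.05e-05. The interaction of the 2 drugs was called for no member, where 0.857% of all genes were called, and none was called by voom, but 6 members had an unadjusted p under 0.05, where 17.6% of all genes did. Without the fold limit, HSPA5 (-0.21 ± 0.045) and PDIA4 (-0.22 ± 0.050) passed the interaction test (limma adjusted p = 0.0123 and 0.0151), as 2.38% of all genes did, which means that the cisplatin effect on these genes was lower in cells with GSK-J4. Without GSK-J4 replicate 3, 1 member was called in this interaction.

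In the knockdown experiment 1 of the 10 members was called without cisplatin. MANF fell in sh6A+6B cells, and no other member was called, where 6.34% of all genes rose and 5.74% fell. Its libraries were at 6.96, 7.0 and 6.94 log2 CPM with pLKO.1 and at 6.54, 6.58 and 6.61 with sh6A+6B, so that it fell by 0.39 ± 0.023 on the log2 scale and the level dropped by 23.7% (limma adjusted p = 7.6e-13). The groups were well separated, but the fall lay close to the fold limit and was under it without pLKO.1 replicate 2 or sh6A+6B replicate 1 (-0.37 each) and with scaling by library size only (-0.37). HERPUD1, at 5.33, 5.32 and 5.34 log2 CPM with pLKO.1, was at 5.43, 5.46 and 5.46 with sh6A+6B, a difference of 0.12 ± 0.025 (limma adjusted p = 0.000266). XBP1 differed by -0.00040 (95% interval -0.046 to 0.045) and HSPA5 by -0.037 (-0.067 to -0.0062). Without the fold limit, 3 members were higher (DNAJB9, HERPUD1 and HSP90B1) and 5 lower (MANF, SDF2L1, DNAJC3, PDIA4 and HSPA5), where 25.6% of all genes were higher and 27.2% lower. At an unadjusted p under 0.05, 9 members passed, where 57.7% of all genes did. The SDF2L1 groups overlapped (2.82 to 3.01 against 2.65 to 2.86 log2 CPM), with a difference of -0.17 ± 0.061.

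DNAJB9 was the member that differed most in sh6A+6B cells given cisplatin. It was at 4.3, 4.22 and 4.25 log2 CPM with pLKO.1, at 4.40, 4.31 and 4.26 with pLKO.1 and cisplatin, at 4.52, 4.43 and 4.43 with sh6A+6B, and at 4.81, 4.69 and 4.68 with sh6A+6B and cisplatin. The group with both was above every other library, by 0.47 ± 0.041 against pLKO.1 (limma adjusted p = 4.93e-10), and no other member was called, where 8.51% of all genes rose and 7.5% fell. Against pLKO.1 with cisplatin the rise of DNAJB9 was 0.41 ± 0.041, with no other member called, where 6.4% of all genes rose and 8.77% fell. This call was lost without pLKO.1 cisplatin replicate 3 (0.37) or sh6A+6B cisplatin replicate 1 (0.36). Cisplatin within sh6A+6B cells called no member, where 3.52% of all genes were called, although 8 members had an unadjusted p under 0.05, where 51% of all genes did, and HSPA5 was higher by 0.13 ± 0.015 (limma adjusted p = 1.77e-07). The interaction of knockdown and cisplatin called no member either, where 3.77% of all genes were called, with 5 members at an unadjusted p under 0.05, where 43.1% of all genes were, and voom called none in both tests. Below the fold limit the interaction was positive for DNAJB9 (0.21 ± 0.058), MANF (0.20 ± 0.032), HERPUD1 (0.13 ± 0.035) and HSPA5 (0.063 ± 0.021, limma adjusted p from 2.25e-05 to 0.0211), where 35.1% of all genes passed the adjusted threshold in either direction.

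The PERK-ATF4-CHOP list gave a different count from the members in the same libraries. Of its 25 genes, all measured, 22 rose and none fell with GSK-J4 in NT2/D1-A4, with a median log2 fold change of 1.44, and 22 rose and none fell in 2102EP-C1, with a median of 0.90. That was 88% of the list in each line, where 13.8% and 7.79% of all genes rose. The largest rises were those of NUPR1 (3.99 ± 0.154), CHAC1 (2.96 ± 0.141) and TRIB3 (2.87 ± 0.085) in NT2/D1-A4 and of TRIB3 (3.00 ± 0.072), DDIT3 (2.31 ± 0.087) and ATF3 (1.70 ± 0.072) in 2102EP-C1. DDIT3, which encodes the death-associated factor CHOP, rose by 2.04 ± 0.100 in NT2/D1-A4. ATF4 itself, controlled chiefly at translation, differed by 0.38 ± 0.033 and 0.30 ± 0.034 and stayed under the fold limit. Of the 10 members 3 and 0 rose in these same comparisons. In sh6A+6B cells 4 of the 25 genes (16%) rose and none fell, where 6.34% of all genes rose and 5.74% fell, with a list median of 0.10. The count of 4 was 2 without pLKO.1 replicate 2, pLKO.1 replicate 3 or sh6A+6B replicate 1, and 1 without sh6A+6B replicate 2. Of the 4, only TNFRSF10B (0.40 ± 0.034) and DDIT4 (0.38 ± 0.029) had a mean above 1 log2 CPM, and DDIT3 was at 0.16 ± 0.051. With cisplatin in pLKO.1 cells, TNFRSF10B (4.75 against 4.54 log2 CPM) and DDIT4 (5.88 against 5.72) were also higher. There ATF4 (-0.15), DDIT3 (-0.23) and 19 of the 25 list genes in all had negative differences. What raised TNFRSF10B and DDIT4 was not tested. The lists were chosen with earlier results of these data known, so their counts are descriptions.

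The lists of the wider ER machinery are read against the shares of all genes called, which were 13.8% up and 6.48% down with GSK-J4 in NT2/D1-A4, 7.79% and 3.12% with GSK-J4 in 2102EP-C1 and 6.34% and 5.74% with sh6A+6B. Of 29, 28 and 28 measured genes of ER folding and disulfide exchange, 5, 0 and 2 rose and none fell with GSK-J4 in NT2/D1-A4, with GSK-J4 in 2102EP-C1 and with sh6A+6B, at medians of 0.048, -0.029 and -0.0028. The shares that rose, 17.2%, 0% and 7.14%, were near those of all genes in NT2/D1-A4 and sh6A+6B cells and below in 2102EP-C1. In NT2/D1-A4 the largest were SIL1, the nucleotide exchange factor of HSPA5 (0.84 ± 0.093), the sulfhydryl oxidase QSOX1 (0.63 ± 0.059) and CRELD1 (0.53 ± 0.137), and the count was 9 without GSK-J4 replicate 2. In sh6A+6B cells the prolyl isomerases FKBP14 (0.58 ± 0.027) and FKBP10 (0.42 ± 0.030) rose. In 2102EP-C1, 1 gene was called without control replicate 3 or GSK-J4 replicate 2. Of 26, 26 and 27 measured genes of ER-associated degradation, EDEM1 rose in NT2/D1-A4 (0.49 ± 0.045), UBE2J1 rose in 2102EP-C1 (0.61 ± 0.050) and none was called in sh6A+6B cells, and 2 were called in NT2/D1-A4 without control replicate 1. The single gene was 3.85% of the list in each line. Of the 26 genes placed in the list for ER translocation and signal peptide processing, only SEC24D was called. It fell by 0.47 ± 0.037 in 2102EP-C1. In sh6A+6B cells 1 gene of this list was called without pLKO.1 replicate 2. Of 23 measured genes of the cytosolic heat shock response, 2 rose and 6 fell in NT2/D1-A4 (HSPH1, which fell by 0.61 ± 0.033, among the latter and HSPB8, at 0.61 ± 0.048, among the former), 1 rose and 1 fell in 2102EP-C1 (HSPB8, at 0.56 ± 0.069, and HSPE1, at -0.38 ± 0.049), and 1 rose and 3 fell in sh6A+6B cells. The shares that fell were 26.1%, 4.35% and 13%, and those that rose 8.7%, 4.35% and 4.35%. In sh6A+6B cells these were HSPA4L (0.41 ± 0.032), HSPB1 (-0.69 ± 0.050), HSPA1A (-0.57 ± 0.039) and HSPA1B (-0.48 ± 0.034), the last 2 being near-identical copies that share reads. In 2102EP-C1 only 1 heat shock gene was called without control replicate 1.

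**Figure D4:**
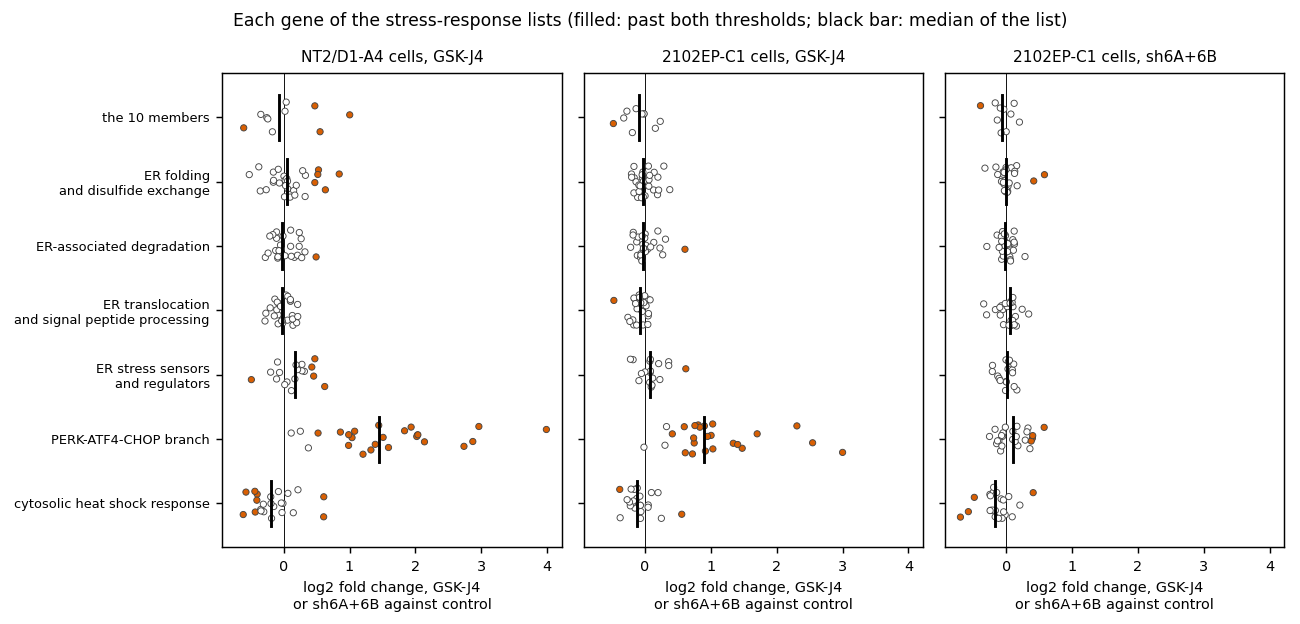
Log2 fold change of each measured gene for GSK-J4 or sh6A+6B against its control, for the 10 members and 6 gene lists, with a panel per experiment. Filled points passed both thresholds, and black bars are medians. The PERK-ATF4-CHOP list is shifted to the right with GSK-J4 in both lines (medians 1.44 and 0.90), while the medians of the members and of the other ER lists lie between -0.089 and 0.18.

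Among the sensors, ERN1 rose with GSK-J4 in both lines, by 0.46 ± 0.116 from 2.45 ± 0.246 log2 CPM (SD, n = 3) in NT2/D1-A4 and by 0.62 ± 0.087 from 2.65 ± 0.068 in 2102EP-C1. ATF6 was higher by 0.28 ± 0.050 and 0.36 ± 0.035, below the fold limit (limma adjusted p = 0.000136 and 6.63e-09), and EIF2AK3 by 0.31 ± 0.056 and 0.072 ± 0.053 (limma adjusted p = 0.000124 and 0.313). In both lines ATF6 was thus higher in the same libraries in which members differed in both directions. SDF2L1, CRELD2, MANF and HSP90B1 were lower there, and HERPUD1 and XBP1 were higher. This is a statement on transcripts and not on cleaved ATF6 protein. Of the 18 measured sensors and regulators, 4 rose and 1 fell in NT2/D1-A4 (NFE2L2, ERN1 and WFS1 among those that rose, TRAF2, at -0.49 ± 0.060, the one that fell), 1 rose in 2102EP-C1 and none was called in sh6A+6B cells. In NT2/D1-A4 these were 22.2% up and 5.56% down, where 13.8% and 6.48% of all genes were, and in 2102EP-C1 5.56% up, where 7.79% were. Without GSK-J4 replicate 2 the NT2/D1-A4 total was 3, and in 2102EP-C1 it was 2 without control replicate 3, GSK-J4 replicate 1 or GSK-J4 replicate 2. In sh6A+6B cells ERN1, ATF6 and EIF2AK3 differed by 0.049 ± 0.058, -0.0019 ± 0.020 and 0.076 ± 0.029.

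Across the 36 libraries, after the mean of each experiment was subtracted, the genes most like HSPA5 among 8730 compared were CALR, the lectin chaperone calreticulin (Pearson r = 0.918), KPNA2 (0.918), PPIF (0.916), PROCR (0.907) and RASL11B (0.904). Among the members, HSP90B1 (0.877) and CRELD2 (0.812) had the highest values, followed by MANF (0.625), DNAJC3 (0.532) and PDIA4 (0.503). DNAJB9 (-0.451), HERPUD1 (-0.801) and XBP1 (-0.871) had negative values. SDF2L1 was not compared because its mean level was under 3 log2 CPM in each table. These values describe 12 groups of 3 libraries that share treatments, and no test was attached to them.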

How the data were processed

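Bulk RNA-seq values of 36 libraries from established cell lines were used. Per the study's methods, the authors used Trimmomatic for low-quality bases, STAR for alignment on GRCh38.p14 and featureCounts for gene counts, kept genes above 0.5 CPM in 2 or more samples and applied TMM normalization. Tool versions and the strand setting of counting are not given in the sources used here. The deposited values are log2 CPM with a prior count of 3 and TMM-scaled library sizes, in 1 table per experiment, and whole reads were recovered from 100% of values under 50 reads within 0.05 of a whole number, which gave the depth of each library.

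All genes of a table were fitted with limma 3.58.1 (trended variance, R 4.3.3) as 4 group means over its 12 libraries, and p-values were adjusted by Benjamini-Hochberg over all genes of the table for each comparison (two-sided). A gene was called at a fold change above 1.3 and an adjusted p under 0.05. Fold changes are on the scale of log2 CPM with this prior count, which understates the change of low genes. The script was tested on simulated data. The alternatives were no fold limit, a mean above 1 log2 CPM, only the libraries compared, the replicate number as a block, voom on recovered reads, library size only in place of TMM, a prior count of 0.5 and leaving out each library. Every member was named for GSK-J4 against control. In the other comparisons every called member was named, with some of the members that were not called. Genes named from a list came from the 3 with the largest rise and the 3 with the largest fall, among those called with a mean above 1 log2 CPM. ATF4, DDIT3, ERN1, ATF6 and EIF2AK3 were named in any case, with the 5 genes most like HSPA5. The members and lists were chosen with earlier results of these data known. Gene positions, lengths and overlaps came from GENCODE 44 and RefSeq. No interval or test was made between tables, which were normalized separately. A marker gene that was not listed was not analysed here.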

Additional observations from a re-analysis of the deposited data

Results flagged for a closer look

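Interaction tests within a table separated the effect of cisplatin with and without the pretreatment or knockdown, below the fold limit. In 2102EP-C1 cells the interaction of cisplatin and GSK-J4 was -0.22 for PDIA4 and -0.21 for HSPA5 on the log2 scale (limma adjusted p = 0.0151 and 0.0123). In the knockdown experiment the interaction of cisplatin and sh6A+6B was 0.20 for MANF, 0.21 for DNAJB9, 0.063 for HSPA5 and 0.13 for HERPUD1 (limma adjusted p from 2.25e-05 to 0.0211). Without the fold limit, 2 of 10 members passed the interaction test in 2102EP-C1, where 2.38% of all genes did. In the knockdown experiment 4 of 10 members passed, near the share of all genes, which was 35.1%.

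For 4 results, every library of a group lay above its comparison group in NT2/D1-A4 and below it in 2102EP-C1. The share of all genes with this pattern was not counted, and the lines were not tested against each other. Without the fold limit, 54% and 53% of all genes were called for the combination against control in NT2/D1-A4 and 2102EP-C1. Against GSK-J4 these shares were 1.26% and 15.7%. With the combination against control, DNAJC3 differed by 0.13 in NT2/D1-A4 and by -0.17 in 2102EP-C1, and PDIA4 by 0.14 and by -0.12. With the combination against GSK-J4, HSPA5 differed by 0.10 and by -0.12, and MANF by 0.052 and by -0.18. The NT2/D1-A4 values against GSK-J4 had limma adjusted p of 0.103 for HSPA5 and 0.566 for MANF.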

How the results depend on the processing

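Of 2358 pairs of 131 member fold changes and alternatives, 2327 kept direction and call, 7 lost a call, 2 gained one and 22 changed sign. The 131 held all members for GSK-J4 or sh6A+6B against control, for cisplatin against control and for both against cisplatin alone. The other comparisons, both against control among them, entered only where the adjusted p was under 0.05. The sign changes concerned differences near 0. With scaling by library size only, in place of TMM, these were MANF after cisplatin in NT2/D1-A4 (0.0088), DNAJB9 with GSK-J4 (0.0014) or cisplatin (0.0042) and SDF2L1 with cisplatin (0.00036) in 2102EP-C1, and XBP1 in sh6A+6B cells (0.016). With voom, DNAJB9 after cisplatin in 2102EP-C1 was at 0.0016. With 1 library left out, the ranges of changed fold changes were -0.033 to 0.0017 (MANF, cisplatin, NT2/D1-A4), -0.0084 to 0.034 (PDIA4, combination against cisplatin, NT2/D1-A4), -0.045 to 0.031 (DNAJB9, GSK-J4, 2102EP-C1), -0.039 to 0.037 (DNAJB9, cisplatin, 2102EP-C1), -0.122 to 0.083 (SDF2L1, cisplatin, 2102EP-C1), -0.017 to 0.013 (XBP1, sh6A+6B), and, for sh6A+6B with cisplatin against pLKO.1 with cisplatin, -0.079 to 0.00056 (SDF2L1) and -0.0034 to 0.050 (CRELD2).

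Without the fold limit, called members numbered 8 with GSK-J4, 5 with cisplatin, 10 for the combination against control and 8 against cisplatin in NT2/D1-A4, where 48.3%, 9.43%, 54% and 48.4% of all genes were called. In 2102EP-C1 they numbered 7 with GSK-J4, 1 with cisplatin, 9 for the combination against control, 3 against GSK-J4, 9 against cisplatin and 2 in the interaction, against 35.2%, 4.08%, 53%, 15.7%, 49.4% and 2.38% of all genes. In the knockdown experiment they numbered 8 with sh6A+6B, 6 with cisplatin, 6 with both, 7 for cisplatin within sh6A+6B cells, 7 for knockdown within cisplatin and 4 in the interaction, against 52.8%, 36.1%, 62.6%, 44.8%, 61.6% and 35.1%. With library size only, no member was called with sh6A+6B. That scaling moved the median of all genes by less than 0.1, and the median of the members to -0.028 (GSK-J4), 0.162 (cisplatin), 0.038 (combination against control) and -0.101 (combination against cisplatin) in NT2/D1-A4, and to -0.041 (sh6A+6B), 0.015 (both against pLKO.1) and 0.035 (knockdown within cisplatin).

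With 1 library left out, the count of called members ranged from 1 to 3 (combination against control) and from 0 to 1 (interaction) in 2102EP-C1, and from 0 to 1 for sh6A+6B without and within cisplatin. The median of the members ranged, in NT2/D1-A4, from -0.024 to 0.0062 (combination against control), 0.058 to 0.098 (against GSK-J4), -0.151 to -0.115 (against cisplatin) and -0.069 to -0.039 (interaction); in 2102EP-C1, from -0.174 to -0.105, -0.285 to -0.217 (against cisplatin) and -0.186 to -0.073 (interaction); and in the knockdown experiment, from -0.064 to -0.042 (sh6A+6B), 0.0046 to 0.034 (cisplatin), -0.018 to 0.010 (both), 0.073 to 0.099 (cisplatin within sh6A+6B), 0.010 to 0.038 (knockdown within cisplatin) and 0.066 to 0.101 (interaction). The cause of these shifts was not tested. Correlations of deviations from the group means between libraries with the same number had medians of -0.025 (range -0.27 to 0.48) in NT2/D1-A4, -0.012 (-0.18 to 0.14) in 2102EP-C1 and -0.0021 (-0.30 to 0.50) in the knockdown experiment, and medians of -0.0071, -0.020 and 0.0098 between different numbers. Not every same-number pair was over 0.1, so the number was taken only as a name, although the highest same-number values of NT2/D1-A4 and of the knockdown experiment exceeded those of different numbers (0.30 and 0.29). The replicate block changed the call or direction of 0 of 131 member results, and 4 members (3 higher, 1 lower) were called with it for GSK-J4 in NT2/D1-A4. Depth limited SDF2L1 most, with 102 reads in its lowest library.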
